A study of Mus musculus with 21 samples.

Results

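The 10 genes that make, phosphorylate or break down nicotinamide adenine dinucleotide (NAD) are described across oocytes and granulosa cells of young and aged mice. The members were found by gene name: Nmnat1, Nmnat2, Nmnat3, Nampt, Naprt, Nadsyn1, Nadk, Nadk2, Bst1 and Cd38. All 10 were present among the 55335 gene identifiers of each library, with 1 identifier per gene. They were picked as a pathway with results of these data known. Nmnat3, Nadk and Bst1 also belong to the genes that the study selected as different between Aged and Young oocytes, so for these 3 genes the oocyte values are a description. Where they enter a count of called members, the count is given and nothing is read from their calls.

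RNA was sequenced from metaphase II oocytes and granulosa cells of female ICR mice, in 21 libraries. Young mice were 6 to 8 weeks old and Aged mice 18 months old. The other groups of 18-month-old mice had received human umbilical cord mesenchymal stem cells under the ovarian capsule 3 weeks before collection, either unsorted cells (Aged + Unsorted), the cells with the highest surface LRP1 (Aged + LRP1high) or those with the lowest (Aged + LRP1low). LRP1 is a cell surface receptor that takes up lipoproteins and proteases, and the comparison between sorted fractions asks whether the fraction that is transplanted matters for the ovary. The 12 oocyte libraries were 3 Young, 2 Aged, 2 Aged + Unsorted, 3 Aged + LRP1high and 2 Aged + LRP1low. The 9 granulosa libraries were 1 Young, 2 Aged, 1 Aged + Unsorted, 3 Aged + LRP1high and 2 Aged + LRP1low. A group given the carrier alone was not analysed here. The labels number biological replicates without saying which mice each came from, so p-values measure only the spread between these libraries.

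NAD is a carrier of electrons in metabolism and also a substrate that signalling and repair enzymes consume, so cells rebuild it continuously. Most of it is salvaged: Nampt turns nicotinamide into nicotinamide mononucleotide, and the adenylyl transferases Nmnat1, Nmnat2 and Nmnat3 finish the dinucleotide in the nucleus, the cytosol and the mitochondria. Naprt and Nadsyn1 serve the route from nicotinic acid, Nadk and Nadk2 phosphorylate NAD to NADP, and the surface enzymes Cd38 and Bst1 split it. In ageing tissue NAD is known to decline, and oocytes, which are rich in mitochondria, have been a main object of that research.

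The libraries differed in ways that touched every gene below. Depth, estimated from the deposited coverage, was 0.278 to 3.4 gigabases in oocyte and 0.335 to 1.49 gigabases in granulosa libraries, so that 1 read of 150 bases on 1 kb of transcript was worth an FPKM (fragments per kilobase of transcript, scaled to library size) of 0.0441 to 0.54. As a background, 1437 vomeronasal and olfactory receptor genes, which neither cell type is known to use, were read in each library, and their 90th percentile ranged from 0 to 7.71 FPKM. The median FPKM of 10 oocyte markers such as Zp3 and Gdf9 was 65.1 to 732 in 8 oocyte libraries, but 0.804 in Young replicate 1, 11.6 in Aged replicate 1, 5.02 in Aged + LRP1low replicate 1 and 7.61 in Aged + LRP1low replicate 2. These 4 libraries are called marker-poor here, and both Aged + LRP1low libraries are among them. The library labelled granulosa Aged + Unsorted went against its label, with an oocyte-marker median of 569 and a granulosa-marker median of 1.27. Granulosa markers such as Fshr and Inha had a median of 92.6 in granulosa Young and 26.5 in granulosa Aged + LRP1high replicate 3, and between 0.0482 and 1.26 in the other 6 granulosa libraries. In such pooled RNA, fewer cells of a type and less RNA per cell cannot be told apart.

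Because the study itself measured Nmnat3 by PCR, its primer pair is shown beside the transcripts over which the gene-level values are summed. Written 5′ to 3′, with no base set apart by capitals, the pair reads as follows.
Nmnat3 forward: atcacgaatatgcacctgcg
Nmnat3 reverse: attgacgggtgagatgatgcc
Nmnat3 lies on the plus strand of chromosome 9 from 98287435 to 98420438 in GRCm38, and GENCODE M21 gives it 6 transcripts of 349 to 2166 bases. The forward primer matched exon sequence at chr9:98354107-98354126 and the reverse primer an exon further downstream at chr9:98399476-98399496. Both primers were found in 3 of the 6 transcripts, always with a product of 99 bases, while the deposited FPKM sums all transcripts. Which transcripts carried the values below was not tested.

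The 10 genes were not equally abundant. By the median FPKM over the 12 oocyte libraries, the order was Nadk2 (8.91), Nadk (5.77), Nampt (5.10), Nadsyn1 (2.21), Nmnat1 (1.07), Nmnat2 (1.01), Nmnat3 (0.929), Naprt (0.713), Cd38 (0.118) and Bst1 (0.00436). The ranges of all neighbours in that order overlapped. The order was not the same in marker-poor and other libraries, where Nmnat3 had medians of 9.45 (highest of the 10) and 0.146 FPKM, Nmnat2 7.31 and 0.359, Cd38 2.03 and 0.0130, and Nadk2 8.91 and 8.96. Over the 9 granulosa libraries the 2 kinases again had the highest medians, 3.34 FPKM for Nadk and 1.81 for Nadk2, and no other member had a median above 0.843. Without the library that went against its label, the medians over the other 8 were 2.2 for Nadk and 1.24 for Nadk2. Of the 120 member values in oocyte libraries, 72 were above the 90th percentile of the silent receptor genes of their own library, against 34 of 90 in granulosa libraries. In the marker-poor oocyte libraries the count was 24 of 40, and in the other oocyte libraries 48 of 80. That percentile was 0 in oocyte Young replicates 2 and 3, Aged + Unsorted replicate 2 and Aged + LRP1high replicate 1. Any value above 0 counted there. Of the 34 granulosa values, 8 came from the library that went against its label. The counts therefore compare neither the cell types nor marker-poor with other oocyte libraries.

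**Figure D1:**
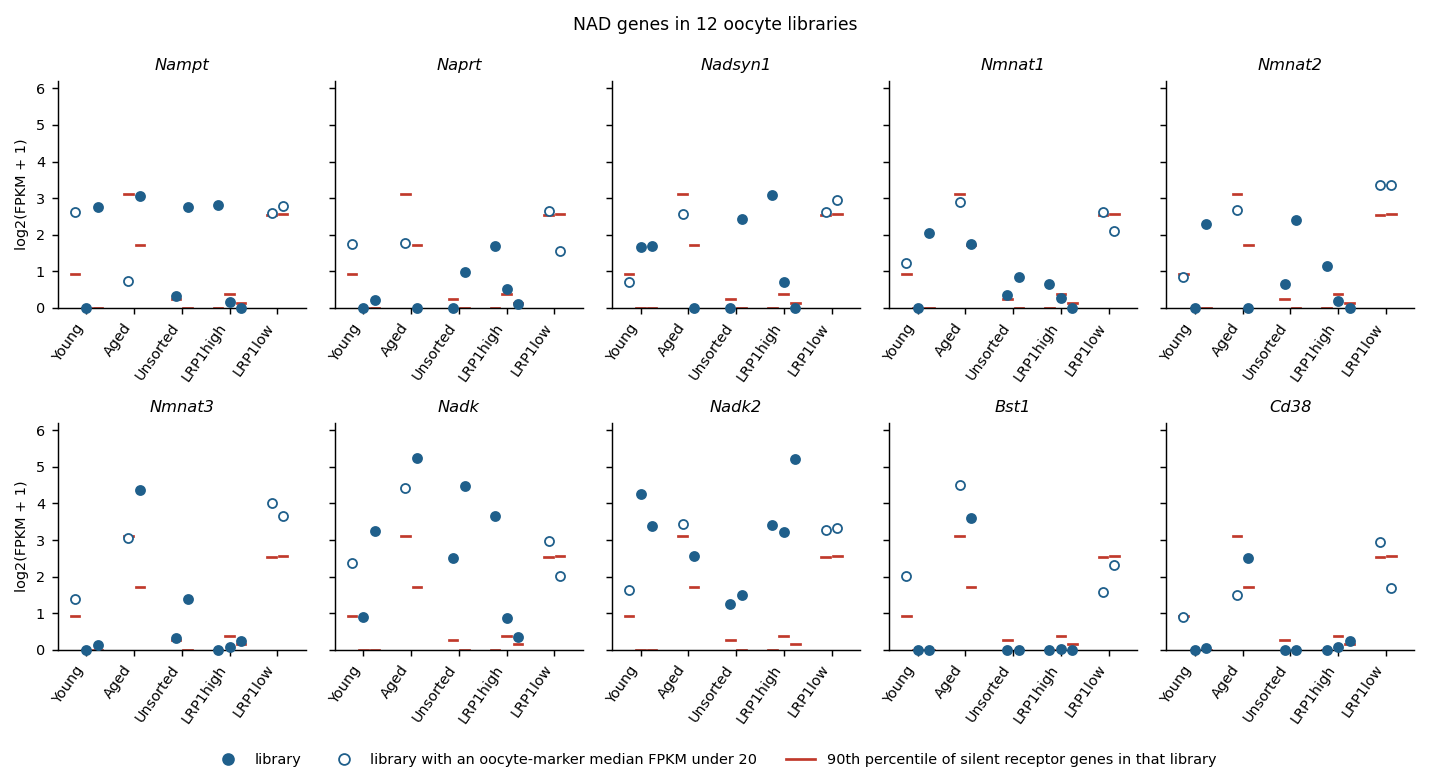
FPKM of the 10 NAD genes in each of the 12 oocyte libraries, on the log2(FPKM + 1) scale (vertical axis), by group (horizontal axis; Unsorted, LRP1high and LRP1low are Aged mice with transplanted cells). Each circle is 1 library in replicate order, and open circles are the 4 marker-poor libraries. Each red bar is the 90th percentile of the silent receptor genes in the same library. By FPKM Nadk2 sits above its red bar in all 12 libraries (by coverage in 7). Bst1 and Cd38 are at 0 in both Unsorted libraries, near 0 in all 3 LRP1high libraries, and at 0 or 0.026 in Young replicates 2 and 3.

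The salvage genes varied as much within groups as between them. Nampt, the rate-limiting step of salvage, was listed at 5.20, 0 and 5.80 FPKM in the Young oocyte libraries and at 0.649 and 7.37 in the Aged ones. After transplantation it was at 0.247 and 5.81 in Aged + Unsorted, at 6.04, 0.109 and 0 in Aged + LRP1high and at 5.0 and 5.84 in Aged + LRP1low. Each group other than Aged + LRP1low thus held both a library at 5.20 FPKM or more and a library at 0.649 or less, and the groups overlapped. Naprt, which opens the nicotinic acid route, was at 2.34, 0 and 0.165 in Young, 2.40 and 0 in untreated Aged, 0 and 0.987 in Aged + Unsorted, 2.24, 0.438 and 0.0748 in Aged + LRP1high, and 5.27 and 1.97 in Aged + LRP1low. Nadsyn1, the NAD synthetase that ends the same route, was at 0.643, 2.15 and 2.26 in Young, 4.88 and 0 in untreated Aged, 0 and 4.38 in Aged + Unsorted, 7.49, 0.633 and 0 in Aged + LRP1high, and 5.14 and 6.71 in Aged + LRP1low. For both genes every transplanted group overlapped the Aged group except that the lowest Nadsyn1 value in Aged + LRP1low, 5.14, exceeded the highest Aged value, 4.88. Such gaps were common over the 28004 genes with a mean of at least 1 FPKM in oocytes. For 27.1% of them both Aged + LRP1low libraries were above both Aged libraries.

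Among the adenylyl transferases, the nuclear enzyme Nmnat1 was listed at 1.35, 0 and 3.14 FPKM in Young oocytes and at 6.43 and 2.35 in Aged oocytes. It was at 0.279 and 0.789 in Aged + Unsorted, at 0.578, 0.204 and 0 in Aged + LRP1high, and at 5.15 and 3.26 in Aged + LRP1low, so the Aged and Aged + LRP1low values lay above those of the other transplanted groups. Of the 28004 genes, 11.3% had all Aged + Unsorted and 12.4% all Aged + LRP1high libraries under both Aged libraries. For 62.6% all Aged + LRP1high libraries were under both Aged + LRP1low libraries. The Aged Nmnat1 value of 6.43 came from the marker-poor Aged library, where 85.2% of the silent receptor genes were lower. Nmnat2, on chromosome 1 from 152954993 to 153119261 and best known from axons, was at 0.808, 0 and 3.92 in Young, 5.38 and 0 in untreated Aged, 0.581 and 4.33 in Aged + Unsorted, and 1.20, 0.137 and 0 in Aged + LRP1high. In Aged + LRP1low it was at 9.24 and 9.34, the highest 2 values of the 12 libraries, where 99.7% of the silent receptor genes were lower by FPKM. By deposited coverage divided by depth, only 1.39% and 7.10% of those genes were lower in the same libraries. Depth was set so that this value equals the FPKM for the median single-exon gene with 1 transcript. For Nmnat2 the value was a median of 0.0658 times its FPKM. Nmnat3, the mitochondrial enzyme, was at 1.62, 0 and 0.102 in Young and at 7.35 and 19.5 in Aged oocytes. After transplantation it was at 0.255 and 1.60 with unsorted cells, at 0, 0.0556 and 0.190 with LRP1high cells and at 15.1 and 11.5 with LRP1low cells. Its Aged and Aged + LRP1low libraries therefore stood together above all 8 others, and the order is given without a test because Nmnat3 was selected on the Aged and Young oocyte values. By coverage divided by depth, 0.905% and 8.77% of the silent receptor genes were lower than Nmnat3 in the Aged + LRP1low libraries, against 100% and 99.9% by FPKM. For Nmnat3 this coverage was a median of 0.0326 times the FPKM over the 21 libraries (0.0134 to 0.0349). So low a ratio lowers the coverage rank of Nmnat3, and which scale is nearer its level was not tested.

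The kinases were the only members above 0 in every oocyte library. Nadk, the cytosolic NAD kinase, was listed at 4.13, 0.871 and 8.57 FPKM in Young, 20.5 and 36.6 in untreated Aged, 4.74 and 21.3 in Aged + Unsorted, 11.5, 0.814 and 0.269 in Aged + LRP1high, and 6.80 and 3.06 in Aged + LRP1low. The Aged libraries of this gene, selected like Nmnat3, lay above every Young, Aged + LRP1high and Aged + LRP1low library, and overlapped Aged + Unsorted. Nadk2, the mitochondrial NAD kinase, on chromosome 15 from 9071260 to 9110891, was at 2.09, 18.1 and 9.52 in Young, 9.78 and 4.86 in untreated Aged, 1.37 and 1.80 in Aged + Unsorted, 9.62, 8.40 and 36.2 in Aged + LRP1high, and 8.74 and 9.08 in Aged + LRP1low. It was above the 90th percentile of the silent receptor genes in 12 of 12 oocyte libraries, against 11 for Nadk and at most 8 for any other member. By coverage divided by depth, Nadk2 and Nadk were each above 90% of those genes in 7 of 12 libraries, and in the Aged + LRP1low libraries 8.35% and 49.1% of them were lower than Nadk2. This coverage was a median of 0.21 times the FPKM for Nadk2 and 0.18 times for Nadk, which lowers their coverage ranks. Only Aged + Unsorted stood apart for Nadk2, with both libraries under all others. Of the 28004 genes, 11.3% had both Aged + Unsorted libraries under both Aged libraries.

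The 2 genes for NAD-splitting surface enzymes are neighbours on chromosome 5, Bst1 from 43818885 to 43843986 and Cd38 from 43868553 to 43912375, with 24566 bases between the end of Bst1 and the start of Cd38 in GRCm38. Bst1 was listed at 3.08, 0 and 0 FPKM in Young oocytes and at 21.7 and 11.2 in Aged oocytes. It was at 0 in both Aged + Unsorted libraries, at 0, 0.00872 and 0 in Aged + LRP1high, and at 2.00 and 3.95 in Aged + LRP1low. Bst1 was thus the member with the most libraries at 0, 6 of 12, and the only Young value above 0 came from the marker-poor Young library. Cd38 was at 0.877, 0 and 0.0260 in Young and at 1.83 and 4.72 in Aged, at 0 in both Aged + Unsorted libraries, at 0, 0.0621 and 0.174 in Aged + LRP1high, and at 6.77 and 2.23 in Aged + LRP1low. The Aged and Aged + LRP1low values of Cd38 therefore lay above those of every other group. Against the silent receptor genes they were uneven, with 46.1% and 94.4% of those genes lower in Aged replicates 1 and 2, and 98.1% and 46.9% in Aged + LRP1low replicates 1 and 2.

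Age was compared first, since the study asked which oocyte genes change between young and old mice. No member was called between Aged and Young oocytes by limma at a fold change over 1.5 and a Benjamini-Hochberg adjusted p under 0.05 (0 of 10), where 0.0964% of the 28004 genes tested were called. At an unadjusted p under 0.05 the count was 4 of 10 against 8.65% of all genes. Of those 4, Nmnat3, Nadk and Bst1 are the selected genes, from which nothing is read here, and Cd38 is the only one of the other 7. Cd38 had a log2 difference of 1.69 ± 0.655 (SE, n = 2 and 3) with an adjusted p of 0.424 in limma, on the log2(FPKM + 1) scale used for every difference here, which understates changes of low genes. Quantile normalization, which gives all libraries the same distribution, brought this difference of Cd38 to 0.53. The median log2 difference was 0.23 over the 7 members outside the selected genes and 0.94 over all genes, or -0.48 and -0.01 after quantile normalization. The 28 other NAD genes tested, listed for de novo synthesis, transport, consumption and repair, gave 0 calls, and 2 at an unadjusted p under 0.05.

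Transplantation was compared with untreated Aged oocytes in 3 contrasts that share the same 2 Aged libraries. With unsorted cells, 0 of 10 members were called, as were 0% of the 28004 genes, and at an unadjusted p under 0.05 the count was 3 members, all lower, against 8.74% of all genes. The member outside the selected genes with the smallest p was Cd38, at 0 in both Aged + Unsorted libraries, with a log2 difference of -2.01 ± 0.717 (SE, n = 2 and 2) and an adjusted p of 0.318 in limma, a difference whose size depends on the pseudocount and that quantile normalization brought to -0.72. With LRP1high cells, 2 of 10 members were called lower, where 0.771% of all genes were called. Of all genes 211 were lower and 5 higher, or 7 and 1 after quantile normalization. Both members are selected genes, Nmnat3 and Bst1, whose high Aged values were part of that selection, so nothing is read from the count, and 0 of the other 7 members were called. At an unadjusted p under 0.05, 5 members were lower, among them Nmnat1 and Cd38, against 10.9% of all genes. Cd38 had a log2 difference of -1.90 ± 0.655 (SE, n = 3 and 2) and an adjusted p of 0.229 in limma, and Nmnat1 had -2.01 ± 0.731 (SE, adjusted p = 0.271). After quantile normalization these differences were -0.21 for Cd38 and -0.49 for Nmnat1. Nmnat1 passed without Aged replicate 2, at -2.59 with an adjusted p of 0.0256 in limma (range over its alternatives, 0.0256 to 0.790), in a fit where the marker-poor Aged library is the single control and is assumed to vary like the other groups. In that fit 39.5% of 28905 genes were called, so nothing about Nmnat1 in particular is read from it.

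With LRP1low cells, 0 of 10 members were called against Aged, where 3.17% of all genes were called, 866 higher and 21 lower, or 190 and 38 after quantile normalization. At an unadjusted p under 0.05 the count was 1 member, against 14.1% of all genes. Nmnat2 had the smallest p of the members outside the selected genes, with a log2 difference of 2.03 ± 1.06 (SE, n = 2 and 2) and an adjusted p of 0.444 in limma. Without Aged replicate 1 it was 3.36 and without Aged replicate 2 it was 0.69. The median difference over the 7 members outside the selected genes was 0.79 beside 0.68 over all genes with LRP1low cells, -0.89 beside -1.05 with LRP1high cells and -0.39 beside -0.86 with unsorted cells. After quantile normalization these medians were -0.01 beside -0.05, 0.15 beside 0.04 and 0.23 beside 0.02. The 7 members include Cd38 and Naprt, which reached the minimum mean of 1 FPKM only through the Aged + LRP1low libraries. Of the 28 other NAD genes, 0 were called in any of the 3 contrasts. Before adjustment, at p under 0.05, 1 was lower with unsorted cells, 2 were lower and 1 higher with LRP1high cells, and 6 were higher with LRP1low cells.

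The sorted fractions were then set against each other in oocytes, which is the contrast the sorting was made for. Of the 10 members 3 were called, all lower in Aged + LRP1high than in Aged + LRP1low, where 26.0% of all 28004 genes were called, 6951 of them lower and 340 higher, or 556 and 148 after quantile normalization. They were Nmnat2, Cd38 and, among the selected genes, Nmnat3. Cd38 and Naprt reached the minimum mean of 1 FPKM only through the Aged + LRP1low libraries. Over the other 10 libraries their means were 0.770 and 0.864. The values of Cd38 are therefore given as a description and its call supports nothing. Nmnat2 had a mean FPKM of 0.447 ± 0.659 (SD, n = 3) after LRP1high and 9.29 ± 0.0728 (SD, n = 2) after LRP1low cells, a log2 difference of -2.92 ± 0.967 (SE) with an adjusted p of 0.0479 in limma. Cd38 had a mean of 0.0788 ± 0.0883 (SD, n = 3) and 4.50 ± 3.21 (SD, n = 2), a log2 difference of -2.22 ± 0.655 (SE). Before adjustment, 5 members at p under 0.05 were lower, against 49.1% of all genes in either direction. A share of 3 in 10 is near that of all genes. The median difference of the 7 members outside the selected genes was -1.69 beside -1.89 over all genes. Cd38 and Naprt are among the 10 and the 7, so nothing is read from this share or this median.

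Both Aged + LRP1low libraries are marker-poor and carry the silent receptor genes at medians of 2.76 and 2.35 FPKM, against at most 0.0709 in the Aged + LRP1high libraries. The part of this background in the differences was not tested, and neither Aged + LRP1low library is marker-rich, so the contrast cannot be made without them. Quantile normalization brought the median of all genes from -1.89 to -0.01 and left Nmnat2 at -2.34 ± 0.519 (SE, adjusted p = 0.0497 in limma) and Cd38 at 0.01, so the direction of Cd38 was lost. Over its alternatives the adjusted p of Nmnat2 in limma was 0.0354 to 0.255. Relative to the median of all genes, the log2 difference as deposited was -1.03 for Nmnat2 and -0.33 for Cd38. With a pseudocount of 0.1 the adjusted p of Nmnat2 in limma was 0.0722, with TPM it was 0.0552, and by coverage divided by depth both genes were under the minimum. The call of Nmnat2 also ended when any single library of the 5 was left out, and over all genes the 7291 calls fell to 319 without Aged + LRP1low replicate 1 and to 0 without any of the others. Nmnat2 had adjusted p values in limma of 0.0797, 0.10 and 0.111 without Aged + LRP1high replicates 1, 2 and 3, and 0.255 and 0.213 without Aged + LRP1low replicates 1 and 2.

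**Figure D2:**
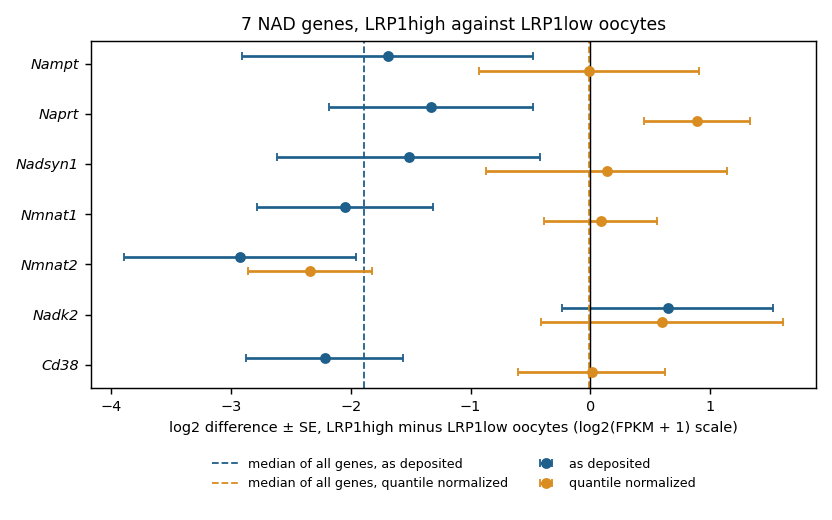
Log2 differences (horizontal axis, log2(FPKM + 1) scale, Aged + LRP1high minus Aged + LRP1low oocytes, n = 3 and 2) of the 7 members outside the study's selected genes; circles are limma estimates and bars their SE, in blue as deposited and in orange after quantile normalization. Dashed lines are the medians of all genes, -1.89 and -0.01. Nmnat2 stays at -2.34 after quantile normalization while Cd38 moves to 0.01. Cd38 and Naprt reached the minimum mean only through the Aged + LRP1low libraries.

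In the same contrast, 11 of the 28 other NAD genes were called, 10 lower and 1 higher. Of all genes 26.0% were called, most of them lower. Several of the lower NAD genes, like Cd38, reached the minimum mean of 1 FPKM only through the Aged + LRP1low libraries. Nothing is therefore read from this count. The 1 higher gene was Sirt6, a deacylase that consumes NAD, at 364, 791 and 1001 FPKM in the Aged + LRP1high oocytes and at 6.72 and 3.44 in the Aged + LRP1low oocytes, a log2 difference of 6.82 ± 1.49 (SE, adjusted p = 0.0207 in limma). In the other oocyte groups Sirt6 was at 4.91, 356 and 318 in Young, at 37.8 and 61.2 in Aged and at 153 and 53.3 in Aged + Unsorted. The 3 lowest of these values, 4.91, 6.72 and 3.44, came from marker-poor libraries. Naxd, which repairs hydrated NADH, was at 1.36, 0.499 and 0.816 after LRP1high and at 15.2 and 22.0 after LRP1low cells, a log2 difference of -3.38 ± 0.842 (SE, adjusted p = 0.0268 in limma). Slc12a8, proposed as a carrier of nicotinamide mononucleotide, was at 0.378, 0.654 and 0 against 10.4 and 12.1, a log2 difference of -3.21 ± 0.815 (SE, adjusted p = 0.0280 in limma). The median difference over the 28 genes was -1.95. After quantile normalization 3 of them were called lower and 1 higher, and with a pseudocount of 0.1 it was 0. With single libraries left out 0 were called, of 25 tested without Aged + LRP1low replicate 1 and 24 without replicate 2.

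Granulosa cells surround the oocyte and supply it with metabolites, and the same genes were read in them. In the 1 Young library, Nampt was listed at 25.4 FPKM, Nadk2 at 17.2 and Nadk at 10.9, while the other 7 members were between 0 and 0.843. Both Aged granulosa libraries had all 10 members at or under 0.331, below the 90th percentile of the silent receptor genes of 0.827 and 0.723. Actb, an abundant cytoskeletal gene, was at 0.461 and 1.74 FPKM in these 2 libraries and at 18.9 or more in every other granulosa library, so that the low member values came with low values of a gene that all cells use. The library labelled granulosa Aged + Unsorted had Nadk at 16.5, Nmnat2 at 4.96, Nampt at 4.50 and Nadsyn1 at 4.25. It ranked genes most like the oocyte Aged + Unsorted replicate 2 library, with a Spearman correlation of 0.931 across genes, given as a description since genes are not independent replicates.

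After LRP1high cells, Nadk was listed at 5.65, 1.05 and 3.34 FPKM in granulosa cells and Nadk2 at 2.94, 0.484 and 1.81. After LRP1low cells Nadk was at 54.0 and 0.592 and Nadk2 at 3.20 and 0.659. All 5 transplanted libraries were thus above the Aged libraries for both kinases, which were at 0.226 and 0 for Nadk and at 0.148 and 0.154 for Nadk2. This is common in these libraries: of the 13002 genes tested, 50.4% had all Aged + LRP1high libraries and 30.5% all Aged + LRP1low libraries above both Aged libraries. Nmnat3 was at 6.92, 0.111 and 1.05 after LRP1high and at 2.13 and 0.0726 after LRP1low cells, around the 0.331 and 0.325 of the Aged libraries. Nampt was at 0, 0.498 and 1.84 after LRP1high and at 0 and 0.143 after LRP1low cells. The highest Nadk and Nadk2 values of the transplanted granulosa libraries came from Aged + LRP1low replicate 1, where 6 luteal markers such as Star summed to 4799 FPKM, against 7.51 to 1762 in the 3 Aged + LRP1high libraries and 67.8 in Aged + LRP1low replicate 2. The part of luteal cells in these values was not tested.

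**Figure D3:**
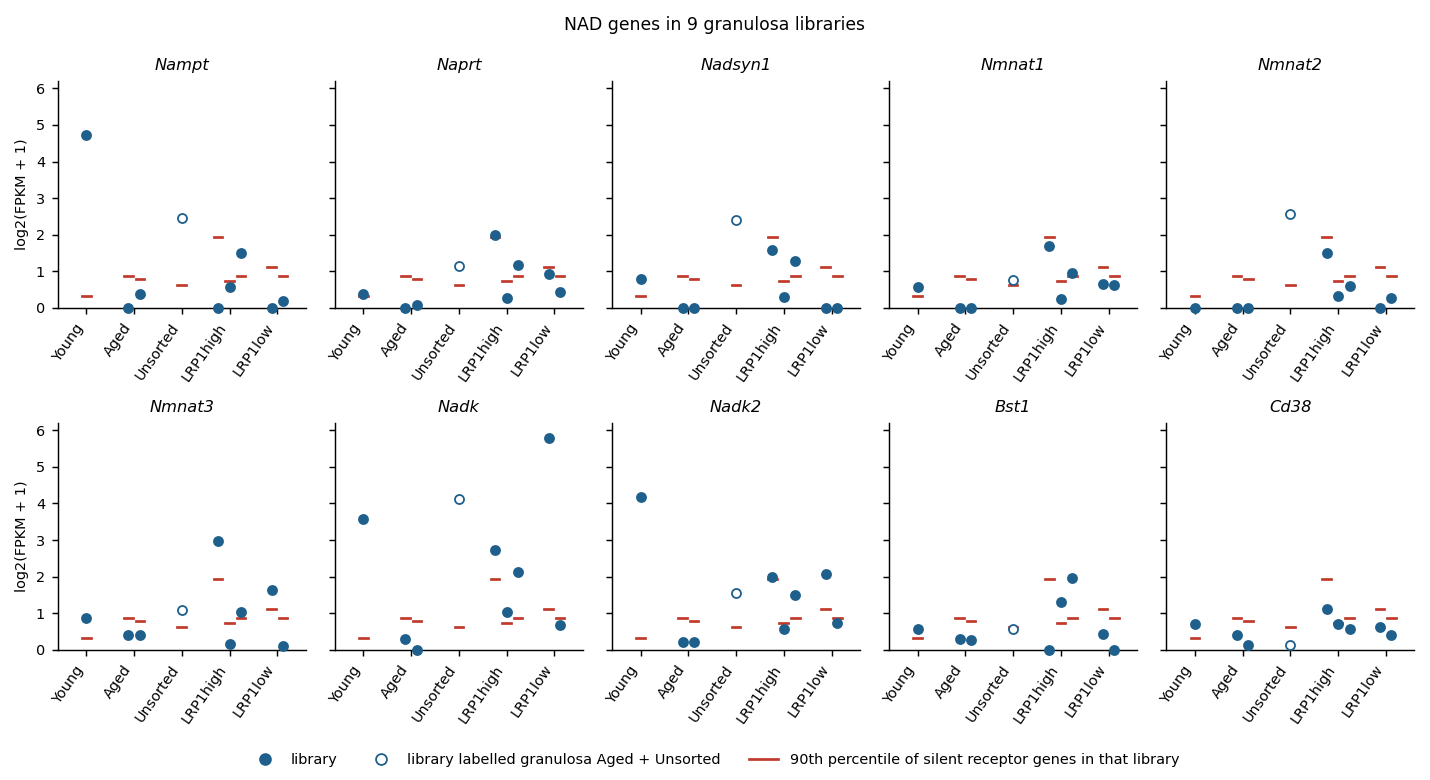
FPKM of the 10 NAD genes in each of the 9 granulosa libraries, on the log2(FPKM + 1) scale (vertical axis), by group (horizontal axis, named as for oocytes). Each circle is 1 library in replicate order, the open circle is the library labelled granulosa Aged + Unsorted, and each red bar is the 90th percentile of the silent receptor genes in the same library; both Aged libraries have all members at or under 0.331 FPKM, below their red bars.

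Only 4 members reached a mean FPKM of 1 in granulosa cells, Nmnat3, Nampt, Nadk and Nadk2. Nampt did so only through the Young library, at 25.4 FPKM. Nmnat3 did so only through the Aged + LRP1high libraries, with 6.92 in replicate 1. None of the 4 members (0 of 4) was called after LRP1high against Aged, after LRP1low against Aged or between the sorted fractions. In each of these comparisons 0% of the 13002 genes tested were called by limma. The member count at an unadjusted p under 0.05 was 0 in all 3, against 8.51%, 3.79% and 5.15% of all genes. The smallest p values belonged to Nadk2 after LRP1high cells, with a log2 difference of 1.14 ± 0.609 (SE, n = 3 and 2, adjusted p = 0.459 in limma; 0.25 after quantile normalization), to Nadk after LRP1low cells, with 3.08 ± 1.61 (SE, n = 2 and 2, adjusted p = 0.904), and to Nampt between the fractions, with 0.60 ± 0.523 (SE, n = 3 and 2, adjusted p = 0.638; 0.20 without Aged + LRP1high replicate 3). Nadk after LRP1low cells passed without Aged + LRP1low replicate 2, at 5.63 with an adjusted p of 0.0335 in limma (range over its alternatives, 0.0335 to 1.00), where the library with Nadk at 54.0 stands alone for its group and is assumed to vary like the others. In that fit 5.61% of 13656 genes were called, and without replicate 1 in its place the difference of Nadk was 0.52. Of the 17 other NAD genes tested, 0 were called in the 3 comparisons, and at an unadjusted p under 0.05 there were 2 higher after LRP1high and 1 higher after LRP1low cells.

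Whether the change from Aged differed between the 2 cell types was tested with an interaction contrast over all 21 libraries. None of the 10 members (0 of 10) was called for LRP1high or for LRP1low cells, as were 0% of the 21767 genes in both. At an unadjusted p under 0.05 the counts were 5 members against 16.0% of all genes for LRP1high, and 1 member against 6.41% for LRP1low cells. Outside the selected genes these were Nmnat1 and Cd38 for LRP1high cells and none for LRP1low cells. Nmnat1 had the smallest p, with a difference of -2.97 ± 1.01 (SE, adjusted p = 0.173 in limma) between the oocyte and the granulosa change. Without oocyte Aged replicate 2, Nmnat1 was at -3.54 with an adjusted p of 0.0121 in limma (range over its alternatives, 0.0121 to 0.608), and Nmnat2 at -3.04 with an adjusted p of 0.0494. The marker-poor library was then the only Aged oocyte control, and 35.6% of 21898 genes were called. For LRP1low cells Nmnat2 had the smallest p, with 1.89 ± 1.35 (SE, adjusted p = 0.910 in limma), which was 3.23 without oocyte Aged replicate 1 and 0.56 without replicate 2.

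Levels in oocytes and granulosa cells were compared directly in the 3 and 3 Aged + LRP1high libraries, the only condition with 3 of both. Here 6 members reached a mean FPKM of 1, and 0 of 6 were called, where 12.7% of the 13047 genes tested were called by limma, 1596 higher in oocytes and 61 lower, or 662 and 272 after quantile normalization. At an unadjusted p under 0.05 the count was 1 of 6, against 24.3% of all genes. That member was Nadk2, with a mean of 18.1 ± 15.7 FPKM (SD, n = 3) in oocytes and 1.74 ± 1.23 (SD, n = 3) in granulosa cells and no overlap between them, as for 18.8% of all genes in that direction, at a log2 difference of 2.61 ± 0.977 (SE, adjusted p = 0.0959 in limma). Quantile normalization brought it to 1.11. With TPM in place of FPKM, Nadk2 was called, at 3.84 with an adjusted p of 0.0193 in limma (range over its alternatives, 0.0193 to 0.405). The median difference was 0.25 over the 4 members outside the selected genes and 0.61 over all genes, or -0.20 and -0.08 after quantile normalization. Of the 16 other NAD genes tested, 1 was called, Sirt6, at 6.91, 0.446 and 0.595 FPKM in granulosa cells, with a log2 difference of 7.97 ± 1.01 (SE, adjusted p = 9.67e-05 in limma).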

How the data were processed

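Per the labels, polyA RNA was isolated with a PicoPure kit and libraries were made with a stranded kit, whereas the study's methods give Smart-seq2, so the use of strand is unsure. Reads were aligned with HISAT2 2.2.1 and quantified with StringTie 1.3.3b. The deposited gene tables give FPKM and TPM values, which the authors' tool scaled per library, and per-base coverage, which is not scaled. The labels name mm9, but 54577 of 55335 gene identifiers carry the exact coordinates of GENCODE M21 (GRCm38), the build used here. Repeated identifiers (4 to 21 per file) were summed.

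Members and lists were chosen with earlier results of these data known. Genes with a mean of 1 FPKM or more were fitted with limma 3.58.1 in R 4.3.3 on log2(FPKM + 1), each cell type's groups sharing 1 model, and called at a fold change over 1.5 and a Benjamini-Hochberg adjusted p under 0.05. Differences were printed for called members, or for the member with the smallest p where none was called, leaving out the selected genes in oocytes. Nmnat1 after LRP1high cells was named after its values were seen. Of the other NAD genes, at most 3 called genes were named per comparison. Of 35 listed symbols of other NAD genes, 33 were found. Depth was estimated from coverage and FPKM, as the median of their quotients in 21693 single-exon genes with 1 transcript. Fits were tested on simulated data. In the simulated 28004 genes for Aged against Young oocytes, 65 of 100 genes changed by 6 log2 units and 14 of 100 changed by 3 were called. Alternatives were another pseudocount, no filter, TPM, quantile normalization, limma with trend and robust settings, single libraries left out, a replicate block and, chosen after seeing the data, coverage divided by depth, unadjusted p and fits without doubtful libraries.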

Additional observations from a re-analysis of the deposited data

How the results depend on the processing

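The number of members called was compared in 155 pairs of a comparison and an alternative setting, and in 111 of them it stayed within 1.5 times the reported count. In most comparisons the reported count was 0, so there a kept count was 0 again. For Aged + LRP1high against Aged + LRP1low oocytes, the count was kept in 0 of 5 fits with a library left out. Of 155 refitted differences of single members, 136 kept their direction and their side of the threshold. Against 0 calls for Aged against Young oocytes, 2 members were called without the filter on low values, 2 with TPM and 4 at an unadjusted p. Of all genes, 1.59%, 2.14% and 8.65% were called in these settings. With single Young libraries left out, 0 to 2 members were called, where 0% to 2.87% of all genes were called. Against 0 for Aged + Unsorted, the counts without the filter, with TPM and at an unadjusted p were 1, 1 and 3. Of all genes, 1.6%, 1.99% and 8.74% were called there. In both comparisons the calls were of selected genes, apart from Cd38 at an unadjusted p. Fits without the 4 marker-poor libraries, or without any Aged or Aged + Unsorted library, leave 1 library in a group, so nothing is read from their calls. For Aged + LRP1high against Aged, with 2 calls, 0 were called with a pseudocount of 0.1, quantile normalization, limma with trend and robust settings or coverage divided by depth, 5 at an unadjusted p, and 0 to 3 with single libraries left out (3 where 39.5% of all genes were called). For Aged + LRP1low against Aged, with 0, 1 was called with quantile normalization (0.814% of all genes) and 1 at an unadjusted p (14.1%). Both were selected genes. For Aged + LRP1high against Aged + LRP1low oocytes, with 3, 0 were called with a pseudocount of 0.1 or coverage, on which scale only 5 members reached the minimum, 5 without the filter, where 42.5% of 54119 genes were called, 5 at an unadjusted p and 0 to 0 with single libraries left out. The Cd38 difference there turned from -2.22 to 0.0094 with quantile normalization. In granulosa cells after LRP1low against Aged, 0 to 1 were called with single libraries left out. Between oocytes and granulosa cells 1 was called with TPM (Nadk2, 3.84) and 1 at an unadjusted p, where 16.8% and 24.3% of all genes were called. For the difference between cell types after LRP1high cells, 3 were called without the filter, 2 with TPM and 5 at an unadjusted p. Of all genes, 2.05%, 2.9% and 16.0% were called in these settings. With single Aged + LRP1high libraries left out, 0 members were called. After LRP1low cells 1 was called with quantile normalization and 1 at an unadjusted p, where 0.813% and 6.41% of all genes were called. The causes were not tested. Coverage, unadjusted p and the fits without doubtful libraries were chosen after seeing the data.

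Libraries shared only a replicate number: the deviations of same-numbered libraries from their group means correlated between -0.44 and 0.44, and no comparison with 3 pairs had all 3 above 0.1. With the replicate number as a block, 0 members were called for Aged + LRP1high against Aged and 0 against Aged + LRP1low, where the count over all genes went from 7291 to 0, and between oocytes and granulosa cells it went from 1657 to 2028.

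With 1 to 3 libraries a group, the comparison of oocytes with granulosa cells was simulated for 13047 genes. It recovered 3 of 100 genes changed by 3 log2 units and 69 of 100 changed by 6. No other genes were changed in the simulation, whereas 1657 genes were called in the data. The adjusted p threshold was therefore stricter in the simulation, and the share of differences missed in the data cannot be read from it. Low FPKM values rested on few reads.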
